A study of Mus musculus with 18 samples.

Results

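The genes described here are 10 immediate early transcription factors: Fos, Fosb, Fosl1, Fosl2, Jun, Junb, Jund, Atf3, Egr1 and Maff. They were taken by gene symbol from the 43346 genes of the tumor count table, and all 10 were found there and passed the filter on low counts. The study sequenced RNA from 12 mouse liver tumor nodules in 4 groups of 3 and from cell lines, and asked how a tyrosine of the co-activator YAP bears on tumors of bile duct and of mixed type. All tumors carried myr-AKT, an AKT kinase tethered to the membrane, together with a mutant YAP. YAP-S tumors are labelled "myr-AKT and YAPS127A", and YAP-SY tumors "myr-AKT and YAP S127A/Y357F". The S127A change removes a serine through which Hippo kinases hold YAP in the cytoplasm, and Y357F takes away a tyrosine on which kinases of the Src family act. Both models contain tumors labelled CCA, for cholangiocarcinoma, and tumors labelled mixed. No labelled tumor group is without these constructs. The labels give neither the animals' strain and age nor the promoter or cell type that drives the constructs. SB1 is a cell line whose genotype label is that of the YAP-S CCA tumors, with 3 samples. The labels do not say whether these are separate cultures, nor whether each tumor came from its own animal, so p-values measure the spread between the sequenced samples.

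AP-1 is a dimer of a Fos protein with a Jun protein, or of 2 Jun proteins, that binds the DNA sequence TGACTCA and its relatives through a basic leucine zipper (bZIP). Growth factor, stress and adhesion signals reach it through MAP kinases, which raise transcription of Fos, Jun and Egr1 within minutes and also phosphorylate the proteins. In liver, Jun is known for its part in hepatocyte proliferation and in tumor initiation, and YAP with its TEAD partners is known to occupy many enhancers together with AP-1. The 4 Fos genes encode partners that cannot dimerize with themselves, while the 3 Jun genes encode proteins that can. Atf3 is a stress-induced bZIP factor that can repress, Maff is a small Maf protein without a transactivation domain, and Egr1 is a zinc finger factor induced through serum response factor.

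The promoters of the members that changed are shown first, to let their start sites be compared. RefSeq (GRCm38.p6, the patch release of the mm10 assembly that the submitters name) held windows for 8 of the 10 members. The 250 bases upstream of the start site are printed for Fosl2, Fos, Jun and Maff, 4 of the 5 members that fell in YAP-SY CCA tumors, 5′ to 3′ on the gene's strand. Capitals mark a TATA box (TATAAA), a cAMP response element or its core (TGACGTCA, TGACGT or ACGTCA) and the sequence TGACATCA or its reverse complement.
Fosl2, chr5:32136222-32136471, plus strand: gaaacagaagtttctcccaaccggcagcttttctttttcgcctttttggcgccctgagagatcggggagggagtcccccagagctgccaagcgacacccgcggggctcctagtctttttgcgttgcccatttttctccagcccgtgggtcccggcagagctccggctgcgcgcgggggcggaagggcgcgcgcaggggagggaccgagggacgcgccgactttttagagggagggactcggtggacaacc
Fos, chr12:85473640-85473889, plus strand: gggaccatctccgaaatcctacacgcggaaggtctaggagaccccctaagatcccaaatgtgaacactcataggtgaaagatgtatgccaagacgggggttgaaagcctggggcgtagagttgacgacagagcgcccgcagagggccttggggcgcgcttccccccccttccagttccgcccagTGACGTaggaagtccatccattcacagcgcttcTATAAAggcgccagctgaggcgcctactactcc
Jun, chr4:95052223-95052472, minus strand: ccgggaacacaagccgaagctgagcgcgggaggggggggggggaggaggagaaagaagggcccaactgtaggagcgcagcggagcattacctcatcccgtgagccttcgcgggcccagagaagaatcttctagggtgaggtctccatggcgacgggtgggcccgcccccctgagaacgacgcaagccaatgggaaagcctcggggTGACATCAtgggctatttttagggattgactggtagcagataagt
Maff, chr15:79347270-79347519, plus strand: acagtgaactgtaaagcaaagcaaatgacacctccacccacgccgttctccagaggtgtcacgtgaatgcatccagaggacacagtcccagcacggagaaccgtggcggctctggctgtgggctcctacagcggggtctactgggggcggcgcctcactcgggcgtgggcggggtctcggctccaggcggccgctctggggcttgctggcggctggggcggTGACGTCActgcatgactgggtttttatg

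A cAMP response element or its core matched in 3 of the 8 members with a window (Fos, Maff and Atf3). TGACATCA matched in 2 (Jun and Maff). Fos has a core at bases -66 to -61 and a TATA box at -33 to -28, counted back from the start site. Maff has a full element at -29 to -22 in the window shown, 1 of its 3 windows, and Jun has TGACATCA at -45 to -38. Another Maff window also has TGACATCA at -45 to -38, and Atf3 has a core at -8 to -3. Both strands of each window were searched, and a core inside a full element was counted as both. The AP-1 sequence (TGACTCA or TGAGTCA), the CArG box and the TEAD sequence (GGAATG) matched in 0 of the 8 members, beside 4.46%, 1.47% and 12.6% of 32851 mouse promoter windows. A full element matched in 1.55% of those windows, a core in 6.47%, TGACATCA in 2.93% and a TATA box in 12.4%. Fosl2, the member with the smallest p in CCA tumors, matched none of the motifs above and has a GC box (GGGCGG, in 32.7% of windows) at -75 to -70. A match describes letters in a window, not a bound site. Bases further than 250 upstream were not searched, so 0 matches do not show that a gene lacks the motif there.

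The tumors had 30656499 to 130035221 counts each, and the SB1 samples 25341968 to 30541185. In YAP-SY CCA tumor 1, 18207 genes had a count, fewer than the 20440 to 24391 of the other tumors. Levels are CPM, counts scaled to the same library total, of libraries normalized by the trimmed mean of M-values (TMM), and levels of different genes are compared only as CPM per kb of gene length. A change was called at an adjusted p under 0.05 over 18318 tested genes. Hepatocyte markers summed to 47649 to 59029 CPM in YAP-S CCA and to 138373 to 159779 in YAP-SY CCA. Bile duct markers summed to 7681 to 11011 CPM in YAP-S CCA and to 2790 to 4240 in YAP-SY CCA. By these sums the YAP-SY CCA tumors held less bile duct marker RNA and more hepatocyte marker RNA than each of the 6 mixed tumors. This goes against their CCA label, which is kept here as a name. Spp1, named after its values were seen, gave 8489 CPM of the mean bile duct sum of 9074 in YAP-S CCA. It gave 3274 of 3391 in YAP-SY CCA, 9662 of 9974 in YAP-S mixed and 9254 of 9550 in YAP-SY mixed. Within YAP-SY, all 11 bile duct markers had log2 fold changes below 0 in CCA against mixed tumors. Within YAP-S, 8 were above 0 and 3 below.

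**Figure D1:**
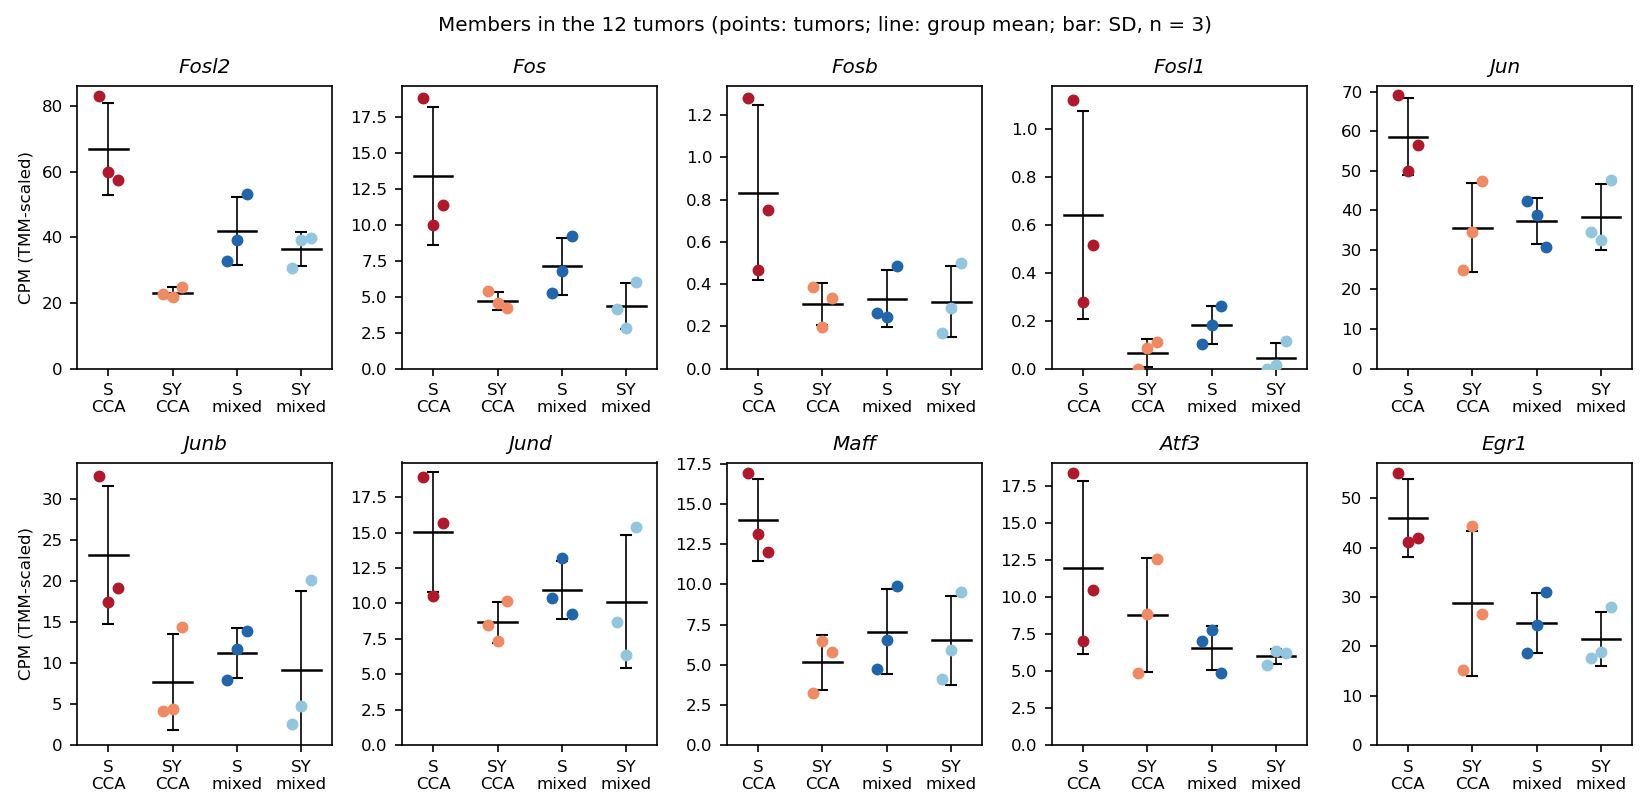
Level of each member (y axis: CPM of TMM-scaled libraries, linear from 0, scale differs between panels) in the 12 tumors. Points are tumors, lines are group means and bars are SD (n = 3). Fosl2 sits at 57.7 to 83.2 in YAP-S CCA and at 21.9 to 24.9 in YAP-SY CCA.

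In CCA tumors, 5 of the 10 members fell in YAP-SY against YAP-S and 0 rose: Fos, Fosl1, Fosl2, Jun and Maff. Fosl1 reached the CPM of the filter in 3 of 3 YAP-S CCA tumors and 0 of 3 YAP-SY CCA tumors. It thus entered the test through the group where it is high, which favours a fall and no overlap. All 10 fold changes were below 0, with a median log2 fold change of -1.44 against -0.0011 over all tested genes. Of all tested genes 20.8% were called lower in this comparison. The values of 8 members did not overlap between the groups, all with YAP-SY lower, beside 28.3% of tested genes. By unadjusted p under 0.05 the count was 8 of 10, beside 8811 of the 18318 genes. Without YAP-S CCA tumor 3 it was 5, beside 7915 of 18730 genes.

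Fosl2, which encodes the Fos protein Fra-2 and has the highest level per kb of the 4 Fos genes in every group, showed the smallest p. CCA tumors 3, 4 and 5 of YAP-S had Fosl2 levels of 83.2, 60.1 and 57.7 CPM, while CCA tumors 1, 6 and 8 of YAP-SY had 22.8, 21.9 and 24.9. Among mixed tumors, Fosl2 was at 32.9, 39.4 and 53.2 CPM in numbers 2, 7 and 9 of YAP-S, while numbers 3, 5 and 9 of YAP-SY had 30.5, 39.4 and 39.8. The 3 YAP-SY CCA tumors were the lowest of all 12 and lay within a narrow range, the 3 YAP-S CCA tumors were the highest, and the mixed groups lay between and overlapped. In CCA, YAP-SY had 2.89-fold less Fosl2 (a log2 fold change of -1.53 with SE 0.20, adjusted p = 0.000208), and the gene lies on chromosome 5 at 32136472 to 32157831 (ENSMUSG00000029135).

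Fos (ENSMUSG00000021250, chromosome 12, 85473890 to 85477273), the classical partner of Jun, followed with lower levels. CCA tumors 3, 4 and 5 of YAP-S had 18.8, 9.99 and 11.3 CPM of it, while CCA tumors 1, 6 and 8 of YAP-SY had 5.41, 4.56 and 4.20. In YAP-S mixed tumors 2, 7 and 9 Fos was at 5.25, 6.79 and 9.23 CPM, and in YAP-SY mixed tumors 3, 5 and 9 at 4.16, 2.84 and 6.02. All 3 YAP-S CCA tumors lay above the other 9, and the YAP-SY CCA tumors lay within the range of the YAP-SY mixed ones. The CCA difference was 2.83-fold (log2 fold change -1.50, SE 0.32, adjusted p = 0.00309).

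Fosl1, which encodes Fra-1, a Fos protein linked to invasion in carcinomas, was near the limit of counting in the tumors. CCA tumors 3, 4 and 5 of YAP-S had 111, 24 and 22 counts of it (1.12, 0.28 and 0.51 CPM), while CCA tumors 1, 6 and 8 of YAP-SY had 0, 3 and 4 counts. Among mixed tumors, Fosl1 was at 5, 12 and 8 counts in numbers 2, 7 and 9 of YAP-S, while numbers 3, 5 and 9 of YAP-SY had 0, 1 and 15. The fitted log2 difference in CCA was -3.32 (SE 1.04, adjusted p = 0.0242), and its size rests on these few counts. Fosl1 reached the CPM of the filter in 3 of 3 YAP-S CCA tumors and in 0 of 3 YAP-SY CCA tumors, so it entered the test through the group where it is high. Fosb, the remaining Fos gene, had 1.28, 0.47 and 0.75 CPM in CCA tumors 3, 4 and 5 of YAP-S against 0.39, 0.20 and 0.33 in tumors 1, 6 and 8 of YAP-SY. Its log2 fold change of -1.44 (SE 0.57) had an adjusted p of 0.0608 and did not pass. The mixed tumors held 0.24 to 0.49 CPM of Fosb in YAP-S and 0.17 to 0.50 in YAP-SY.

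Jun (ENSMUSG00000052684, chromosome 4, 95049034 to 95052222), the founding Jun gene, had the smallest difference of the 5 called members. CCA tumors 3, 4 and 5 of YAP-S had Jun levels of 69.2, 50.02 and 56.6 CPM, while CCA tumors 1, 6 and 8 of YAP-SY had 24.9, 34.6 and 47.3. Among mixed tumors, Jun was at 42.3, 38.7 and 30.8 CPM in numbers 2, 7 and 9 of YAP-S, while numbers 3, 5 and 9 of YAP-SY had 34.4, 32.5 and 47.8. The YAP-S CCA tumors were again the 3 highest, but YAP-SY CCA tumor 8 came close to YAP-S CCA tumor 4, and the mixed tumors overlapped the YAP-SY CCA range. Jun was 1.65-fold lower in YAP-SY CCA (a log2 fold change of -0.72 with SE 0.23, adjusted p = 0.0262).

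Junb and Jund, whose proteins are weaker activators than Jun in many settings, did not pass. For Junb, CCA tumors 3, 4 and 5 of YAP-S had 32.8, 17.5 and 19.2 CPM, while CCA tumors 1, 6 and 8 of YAP-SY had 4.15, 4.44 and 14.5. In YAP-SY mixed tumors 3, 5 and 9 it was at 2.59, 4.81 and 20.2 CPM, so 1 tumor in each YAP-SY group stood well above the other 2. The CCA groups did not overlap for Junb, yet with that spread its log2 fold change of -1.60 (SE 0.66) had an adjusted p of 0.0722. In YAP-S mixed tumors Junb was at 7.91, 11.7 and 14.0 CPM. Jund, the most constantly expressed Jun gene in textbook accounts, had 18.9, 10.5 and 15.7 CPM in CCA tumors 3, 4 and 5 of YAP-S against 8.50, 7.32 and 10.2 in tumors 1, 6 and 8 of YAP-SY. Its log2 fold change was -0.79 (SE 0.31, adjusted p = 0.0580), and the mixed tumors held 9.26 to 13.2 CPM of Jund in YAP-S and 6.32 to 15.4 in YAP-SY, across the YAP-SY CCA range.

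Among the members outside the Fos and Jun families, Maff fell. Maff (ENSMUSG00000042622, chromosome 15, 79347541 to 79359072) had 16.9, 13.2 and 12.03 CPM in CCA tumors 3, 4 and 5 of YAP-S against 3.22, 6.46 and 5.82 in tumors 1, 6 and 8 of YAP-SY. Among mixed tumors, Maff was at 4.72, 6.57 and 9.91 CPM in numbers 2, 7 and 9 of YAP-S, while numbers 3, 5 and 9 of YAP-SY had 4.12, 5.90 and 9.55. The YAP-S CCA tumors lay above the other 9, and the other groups overlapped. The CCA difference of Maff was 2.72-fold (log2 fold change -1.45, SE 0.36, adjusted p = 0.00712).

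Egr1 and Atf3 overlapped between the CCA groups. Egr1 had 55.2, 41.1 and 41.9 CPM in CCA tumors 3, 4 and 5 of YAP-S against 15.2, 44.4 and 26.7 in tumors 1, 6 and 8 of YAP-SY, a log2 fold change of -0.68 with SE 0.32 and adjusted p = 0.113. Atf3 had 18.4, 7.02 and 10.5 CPM in the same tumors of YAP-S against 4.85, 8.86 and 12.6 in those of YAP-SY, a log2 fold change of -0.45 with SE 0.36 and adjusted p = 0.348. For both genes the YAP-SY CCA tumors were spread widely, with tumor 1 lowest. The mixed tumors held 18.7 to 31.01 CPM of Egr1 in YAP-S and 17.7 to 27.9 in YAP-SY. Atf3 was at 4.86 to 7.73 CPM in YAP-S mixed tumors and 5.42 to 6.37 in YAP-SY mixed tumors, the narrowest range of its 4 groups.

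One tumor of the YAP-S CCA group stood above the rest for the whole set. YAP-S CCA tumor 3 had the highest level of all 12 tumors for all 10 members, while it was the highest for 10.2% of tested genes. YAP-SY CCA tumor 1 was the lowest of the 12 for 5 members, beside 19.1% of tested genes, with ties given to the first tumor in order. The 5 were Jun, Atf3, Egr1, Maff and Fosl1, the last tied at 0 counts with YAP-SY mixed tumor 3. Heat shock genes summed to 1742 CPM in YAP-S CCA tumor 3, the lowest of its group (3066 and 2285 in tumors 4 and 5). They summed to 4635 in YAP-SY CCA tumor 1. Hspa8 gave 1194 CPM of the mean sum of 2364 in YAP-S CCA, and Hspa1a and Hspa1b gave 3.52 and 8.21. These genes are named after their values were seen. The part of handling stress in the member levels was not tested. Without YAP-S CCA tumor 3, 3 members were called in CCA (Fos, Fosl2 and Maff) and the log2 fold changes of Fosl2, Fos and Maff were -1.36, -1.19 and -1.30. Without YAP-SY CCA tumor 1 the same 3 were called, at -1.52, -1.61 and -1.19. Of all genes, 3302 of 18730 were called lower without YAP-S CCA tumor 3, and 3591 of 18725 without YAP-SY CCA tumor 1. Jun and Fosl1 lost their calls without either of these tumors and without YAP-SY CCA tumor 6; Jun then had adjusted p of 0.0894 and 0.0896 for the first and second. Without YAP-S CCA tumor 4, 7 members were called, with Fosb and Jund added, beside 3141 of 18679 genes called lower. Scaling by library size alone called all 10 members, and in that fit the median of all genes itself moved to -0.56. Of all genes, 3358 were called higher and 3813 lower in this comparison, and with library size alone 760 higher and 8064 lower.

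**Figure D2:**
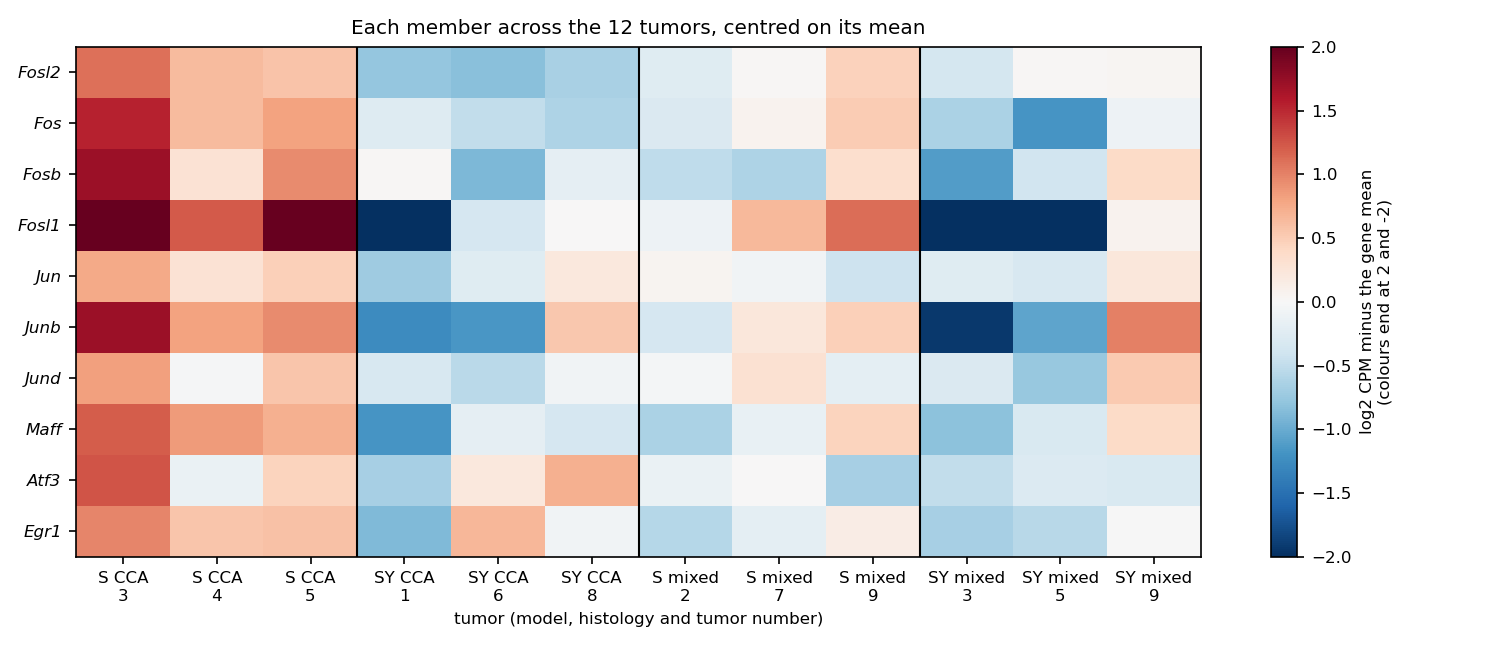
Log2 CPM (prior count 1) of each member minus its mean over the 12 tumors (colour, ends at 2 and -2), by tumor. YAP-S CCA tumor 3 has the highest value for all 10 members, although for Fosl1 the colour ends before its value, and in YAP-SY mixed tumor 9 Junb stands above its group.

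In mixed tumors none of the 10 members was called between YAP-SY and YAP-S by edgeR, and 0% of all tested genes were. The median member log2 fold change was -0.16. By edgeR's unadjusted p under 0.05, 1 member (Fos) and 551 of all genes passed, and DESeq2 called 0 members and 12 genes. No member separated the 2 mixed groups, while 8.35% of tested genes did in either direction. Fos had a log2 fold change of -0.70 (SE 0.32) and Fosl2 of -0.19 (SE 0.19), with YAP-SY lower in each. Maff was at -0.10 (SE 0.35) and Egr1 at -0.20 (SE 0.32). Jun (0.04, SE 0.23) and Fosb (0.02, SE 0.56) were the members above 0, and both turned below 0 when libraries were scaled by total counts alone. YAP-SY mixed tumor 9 had the highest level of its group for 9 members, all but Atf3, beside 36.0% of tested genes. It also had the largest library and the lowest bile duct marker sum of its group, 4366 CPM against 7736 in tumor 3 and 16548 in tumor 5. On average 9254 of the 9550 CPM of that sum in YAP-SY mixed tumors came from Spp1. The part of these markers in the member levels was not tested.

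The difference between the histologies was tested directly. The YAP-SY effect in CCA minus that in mixed tumors was below 0 for all 10 members, with a median of -1.07. Only Fosl2 passed (difference of log2 fold changes -1.34, SE 0.27, adjusted p = 0.00972), 1 of 10 members beside 10.2% of all tested genes called lower. Maff had a difference of -1.35 (SE 0.50, adjusted p = 0.0824) and Jun of -0.76 (SE 0.33, adjusted p = 0.129), and neither passed. Fos, called in CCA alone, had a difference of -0.80 (SE 0.44, adjusted p = 0.235). Whether Maff, Jun and Fos passed depended on the fit: DESeq2 called Maff, as did edgeR without YAP-SY mixed tumor 3, edgeR without YAP-SY CCA tumor 8 called Jun, and library size alone called Fos, Jun and Maff. Fosl2 was called in each of the alternatives run for this difference, including the 12 fits that each left out 1 tumor, whose values ran from -1.56 to -1.16.

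**Figure D3:**
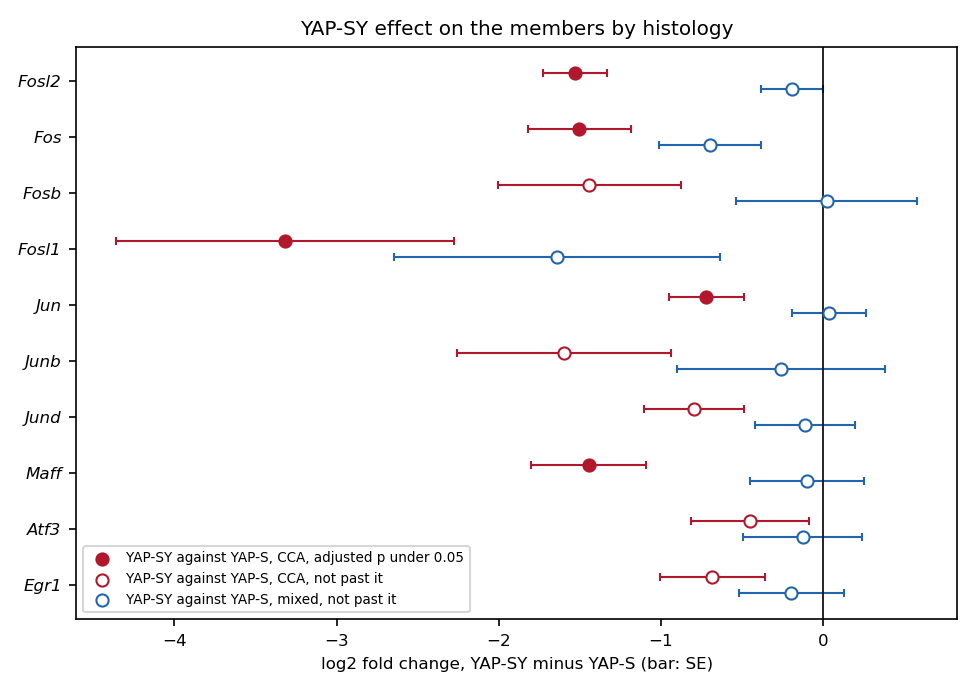
Log2 fold change of YAP-SY against YAP-S (x axis, bar: SE) for each member in CCA (red) and mixed tumors (blue). Filled points passed an adjusted p of 0.05: Fosl2, Fos, Fosl1, Jun and Maff in CCA and no member in mixed tumors. Fosl1 entered the test through the group where it is high.

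Within YAP-S, the members were higher in CCA than in mixed tumors without any call. All 10 log2 fold changes were above 0, with a median of 0.91, and 7 members did not overlap between the groups, beside 20.2% of tested genes that were likewise higher. edgeR called 0 members and 0% of genes in this comparison, while 7 members and 3636 of 18318 genes had an unadjusted p under 0.05. That member count was 1 without YAP-S CCA tumor 3, beside 2924 of 18730 genes. It was 2 without YAP-S mixed tumor 2, beside 2061 of 18938 genes. CCA tumors had 1.60-fold more Fosl2 (a log2 fold change of 0.68 with SE 0.19, adjusted p = 0.0880) and Fos 1.89-fold (0.92, SE 0.31, adjusted p = 0.136). The log2 fold change of Egr1 was 0.90 (SE 0.33, adjusted p = 0.156) and that of Maff 1.0 (SE 0.35, adjusted p = 0.147). The call depended on the tool: DESeq2 called Fos and Fosl2 among 1435 genes, and a fit to these 6 tumors alone called Jun, Junb, Egr1 and Maff among 2393 of 17782 genes. These comparisons share the YAP-S CCA tumors with the YAP-SY comparison in CCA.

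Within YAP-SY, the order between the histologies was no longer shared by the members. Between CCA and mixed tumors 6 members were below 0 and 4 above, with a median log2 fold change of -0.10, and Fos (0.12) and Fosl1 (0.17) turned below 0 when scaled by library size alone. edgeR called 0 members beside 2.9% of all tested genes (a share that was 0% without YAP-SY CCA tumor 6), and 1 member, Fosl2, had an unadjusted p under 0.05, beside 3951 of 18318 genes. Without YAP-SY CCA tumor 1 that member count was 3, beside 3835 of 18725 genes. CCA tumors had 1.58-fold less Fosl2 (a log2 fold change of -0.66 with SE 0.19, adjusted p = 0.0814), with no overlap between the groups, the 1 member of which that held, beside 20.1% of tested genes in either direction. DESeq2 called it among 1720 genes. Atf3 (0.54, SE 0.37) and Egr1 (0.41, SE 0.32) were the members furthest above 0. In order of mean level, Fosl2 thus stood at 67.0 ± 14.1 CPM in YAP-S CCA, 41.8 ± 10.4 in YAP-S mixed, 36.5 ± 5.21 in YAP-SY mixed and 23.2 ± 1.55 in YAP-SY CCA (SD, n = 3). The 2 middle groups overlapped, and each outer group lay clear of its neighbour. For Egr1 the order was YAP-S CCA (46.1 ± 7.92 CPM), YAP-SY CCA (28.7 ± 14.7), YAP-S mixed (24.7 ± 6.15) and YAP-SY mixed (21.5 ± 5.55), and each neighbouring pair overlapped.

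The make-up of the AP-1 pool was described as each gene's share of the summed CPM per kb of the 7 Fos and Jun genes. Jun took the largest share in every tumor group, in CCA 34.5% ± 2.81 for YAP-S against 45.5% ± 4.95 for YAP-SY and in mixed tumors 37.0% ± 8.44 against 43.2% ± 5.99 (SD, n = 3). In CCA the Jun shares did not overlap, at 31.3% to 36.4% in YAP-S and 40.4% to 50.3% in YAP-SY. Fosl2 took 21.4% ± 1.84 of the pool of YAP-S CCA against 16.9% ± 3.56 for YAP-SY CCA, and Junb 23.0% ± 2.41 against 15.7% ± 7.41. The 4 Fos genes together took 32.8% for YAP-S CCA against 26.2% for YAP-SY CCA, of which Fosl1 made 0.647% against 0.143% of the whole pool. These shares are given as a description and were not tested.

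In SB1 cells the same genes were expressed in other proportions. SB1 counts lie in a table of their own and were scaled separately, so the levels stand beside those of the tumors without a test. Fosl2 was at 89.1, 119 and 153 CPM in SB1 samples 1, 2 and 3, against 57.7 to 83.2 in the YAP-S CCA tumors. Fosl1, near the counting limit in tumors, was at 5.73, 10.8 and 18.1 CPM in SB1 cells. Maff was at 31.4, 50.3 and 50.6 CPM and lay above all tumors in all 3 samples, and Junb, at 24.1, 40.3 and 54.7 CPM, did so in samples 2 and 3. Jun went the other way, at 20.7, 26.7 and 31.9 CPM against 50.02 to 69.2 in the YAP-S CCA tumors, and so did Egr1, at 14.0, 16.0 and 19.1 CPM against 41.1 to 55.2.

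The SB1 samples differed among themselves for every member. Sample 3 was the highest and sample 1 the lowest for all 10 members. Of the genes tested in tumors, sample 3 was the highest for 39.1% and sample 1 the lowest for 33.2%. Within the Fos and Jun pool of SB1 cells, Junb took 31.7%, Fosl2 31.2%, Jun 12.7% and Fosl1 9.59% on average, and the Fos genes together 45.2% ± 0.67 (SD, n = 3). That last share lay between 44.6% and 45.9% although the levels differed between the samples. The 8 endothelial markers summed to 0.62 to 1.25 CPM in SB1 cells, with Clec4g at 0, and the 8 T and NK markers to 1.51 to 3.79 CPM, with Cd3e, Nkg7, Klrb1c and Gzmb at 0 and Trac at 2.46 CPM on average. Of the 8 macrophage markers 4 were at 0, Clec4f, Marco and Timd4 among them, while the list summed to 138 to 176 CPM. The fibroblast and stellate list summed to 461 to 615 CPM with Lum and Lrat at 0, the hepatocyte list to 698 to 1210 and the bile duct list to 2873 to 3307.

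**Figure D4:**
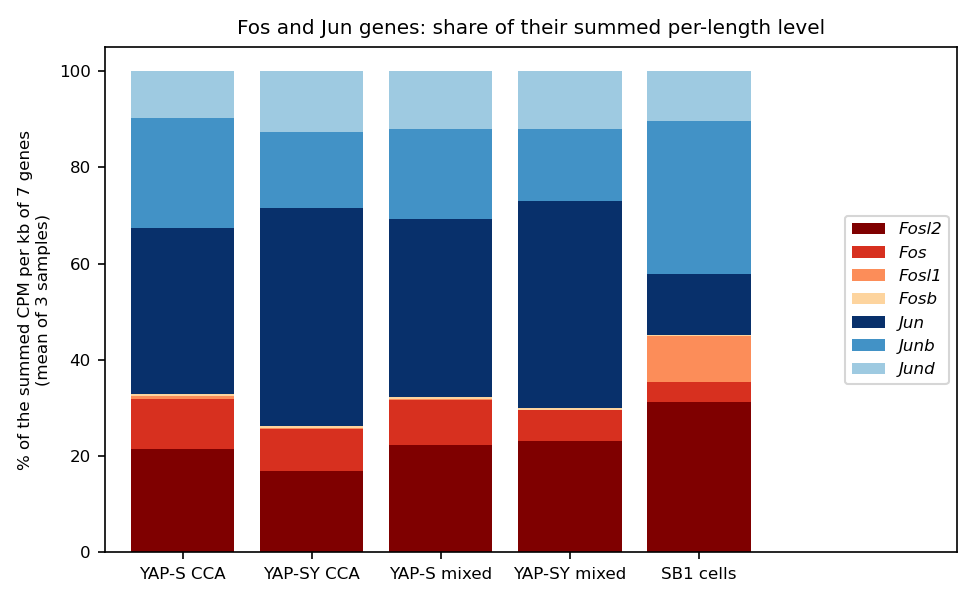
Share of each Fos and Jun gene in the summed CPM per kb of the 7 genes (y axis, %, mean of 3 samples) in the 4 tumor groups and in SB1 cells, whose counts come from a separate table. Jun is the largest share in each tumor group (34.5% to 45.5%) and takes 12.7% in SB1 cells, where Fosl1 takes 9.59%.

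Related genes were read from 6 lists, which were chosen with earlier results of these data known. Of all tested genes 20.8% were called lower and 18.3% higher in YAP-SY CCA. Of 21 tested textbook AP-1 targets, 15 fell and 0 rose in CCA, with a median log2 fold change of -1.69. They included Hbegf, a shed EGF receptor ligand, at 11.1 ± 1.43 CPM for YAP-S CCA against 1.94 ± 0.20 for YAP-SY CCA (SD, n = 3; log2 fold change -2.52, adjusted p = 9.84e-05). Lif, a cytokine of the interleukin-6 family, had a log2 fold change of -3.11 and the metalloproteinase inhibitor Timp1 of -3.33. Spp1, 1 of the 15 and named after its values were seen, is also on the bile duct marker list. In the test between histologies, 12 of the 21 fell, Mmp10 among them, with Hbegf at -2.74, Timp1 at -3.03 and Lif at -2.75. Of all tested genes 10.2% were called lower and 5.02% higher in that test. Between CCA and mixed tumors of YAP-SY, 6 of them were called lower, beside 2.7% of all tested genes, Hbegf (-1.41), Lif (-1.69) and Timp1 (-1.74) first.

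Of 25 other immediate early genes, 13 fell in YAP-SY CCA and 0 rose, with a median of -0.81. Egr2, a zinc finger relative of Egr1, went from 7.50 ± 0.39 to 0.94 ± 0.24 CPM (SD, n = 3; log2 fold change -3.00, adjusted p = 9.84e-05). The small GTPase gene Rhob (-1.67) and the YAP target Cyr61 (-1.47) followed by p. The list did not move as 1 block: Dusp1 (0.60, adjusted p = 0.166), Zfp36 (0.41, adjusted p = 0.346) and Nr4a1 (0.27, adjusted p = 0.80), chosen after their values were seen, were above 0 without a call. Between histologies 8 of the 25 fell, with Egr2 at -3.12, Rhob at -1.59 and Ier5 at -1.61. In YAP-SY, 5 were lower in CCA than in mixed tumors: Ier5 (-0.99), Egr2 (-1.31), Cyr61 (-0.79), Ier3 (-1.90) and Rhob (-0.74), the last 2 named after their values were seen. Without YAP-SY CCA tumor 1, all 6 lists together held 2 calls in that comparison, against 11 with it. Over all genes the calls were 109 without that tumor and 532 with it.

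Of 16 other AP-1 and Maf bZIP genes, 7 fell in YAP-SY CCA and 0 rose, although the list's median was 0.07. Jdp2, which encodes a Jun dimerization partner, went from 8.43 ± 0.98 to 2.39 ± 0.57 CPM (SD, n = 3; log2 fold change -1.82, adjusted p = 0.000322). Creb5 had a log2 fold change of -1.75 and Mafk, a small Maf like Maff, of -0.99. Between histologies 6 of the 16 fell, with Creb5 at -2.42, Jdp2 at -1.67 and Batf at -2.54, and 3 did without YAP-SY CCA tumor 1. Of 13 genes for MAP kinase feedback and output, 7 fell in CCA and 0 rose (median -0.77), led by the receptor signalling inhibitors Spry1 (-1.33) and Spred3 (-1.66) and the ETS factor Etv4 (-2.55). Between histologies 4 of these fell: Etv4 (-2.69), Spred3 (-1.61), Spry1 (-1.04) and Spry2 (-1.71), the last named after its value was seen.

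The kinases and factors that act on AP-1 and Egr1 went both ways, 7 of 25 lower and 7 higher in YAP-SY CCA, near the shares of all tested genes (20.8% and 18.3%), with a median of -0.19. The kinases Map3k1 (84.6 ± 6.30 to 38.6 ± 2.13 CPM; log2 fold change -1.13) and Map4k4 (-1.19) and the ETS factor Elk3 (-0.91) had the smallest p. The MAP kinase gene Mapk3 fell (-0.94, adjusted p = 0.00322), and so did Srf, which encodes serum response factor (-0.99, adjusted p = 0.00781). Both were chosen after their values were seen. Scaled by library size alone, 0 of the 25 were called higher and 15 lower. Between histologies 4 of the 25 fell (Map3k1, Map4k4, Mapk3 and Elk3) and 2 rose (Map3k5 and Crem), of which Mapk3, Elk3 and Crem are named here after their values were seen, and without YAP-S CCA tumor 3 these counts were 2 and 0, while without YAP-SY CCA tumor 1 they were 4 and 0. Of 10 heat shock genes, 2 rose in YAP-SY CCA (Hspd1, 0.72, and Hspe1, 0.49) and 1 fell (Hspb1, -1.50), with a median of 0.10, and without YAP-SY CCA tumor 1 the counts were 1 and 3 and the median was -0.74, while without YAP-S CCA tumor 3 they were 1 and 0 with a median of -0.11. In mixed tumors edgeR called 0 of the 110 genes tested over the 6 lists, 0 had an unadjusted p under 0.05, and DESeq2 called 0. Between the histologies of YAP-S edgeR called 0 of them and 41 had an unadjusted p under 0.05 (3636 of 18318 for all genes), while DESeq2 called 21, all higher in CCA. Mafa, Egr4, Npas4, Mapk10 and Il6 did not pass the count filter.

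**Figure D5:**
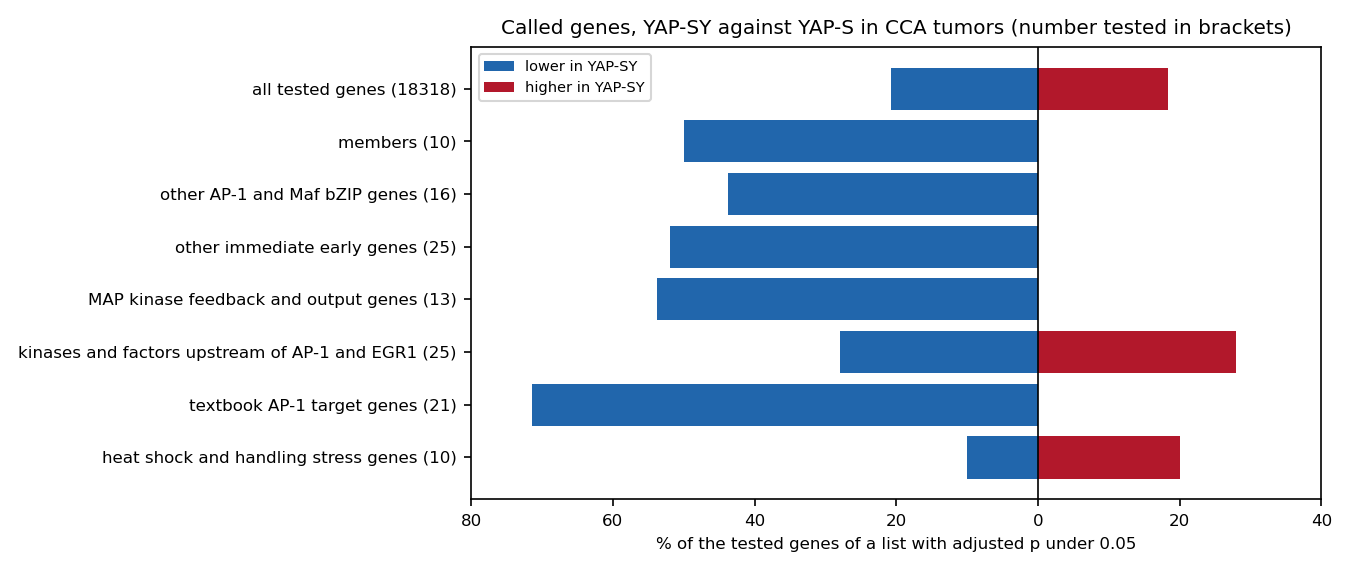
Share of the tested genes of each list (x axis, %) called lower (blue, to the left) or higher (red, to the right) in YAP-SY against YAP-S CCA tumors, with the number tested in brackets. The upstream list is the one with calls in both directions in equal number, 7 and 7.

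Cell type markers moved in the same comparison. In YAP-SY CCA, 8 of 10 hepatocyte markers rose. Of the others, 9 of 11 bile duct, 8 of 10 fibroblast and stellate and 6 of 8 T and NK cell markers fell. All tested genes were called higher in 18.3% and lower in 20.8% of cases, which stand beside each marker count here. The fibroblast and stellate list summed to 1978 to 2479 CPM in YAP-S CCA, 479 to 651 in YAP-SY CCA, 842 to 1110 in YAP-S mixed and 685 to 1021 in YAP-SY mixed. The T and NK list summed to 11.3 to 36.1 CPM in YAP-S CCA and 5.12 to 9.68 in YAP-SY CCA. Neutrophil markers summed to 15.2 to 19.4 and 6.18 to 8.68 CPM, with Mpo at 0 in both, and 3 of 6 tested ones fell. Macrophage markers summed to 424 to 793 and 304 to 424 CPM, with 3 of 8 lower and 2 higher, and endothelial markers to 301 to 420 and 382 to 491, with 3 of 8 lower and 2 higher. B and plasma cell markers, with 0 of 5 called, summed to 5.57 to 9.71 and 6.62 to 11.8 CPM, and red cell markers, with 1 of 5 higher, to 79.0 to 171 and 156 to 299. Their part in the member values was not tested. In such bulk samples, fewer cells of a type and less RNA per cell cannot be told apart.

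The genes most like each member across the 12 tumors were found by the root mean square (RMS) difference of log2 CPM after centring each gene on its mean. Fosl2 had the closest neighbours, Lhfp (0.12) and Itgav (0.13), against a deviation of Fosl2 itself of 0.58. For Fos they were Serpine2 (0.28) and Inhbb (0.30), and for Maff Ctla2a (0.21) and Slc2a3 (0.27). Egr1 also had Slc2a3 (0.24), then Msh5 (0.28). Jun was nearest to 2210016L21Rik (0.15) and Hexim2 (0.16), and Jund to Gm10073 (0.14) and Ubald2 (0.16). Junb was nearest to Unc5a (0.30) and Lefty1 (0.36), Fosb to Adamtsl5 (0.33) and Sh2d5 (0.35), and Atf3 to E130317F20Rik (0.22) and Trpt1 (0.30). Fosl1 had the largest differences, with Wnt2b at 0.63 and Optc at 0.69, but also the largest deviation of its own, at 1.80. Among the members themselves, the nearest was Jund for Jun (0.27), Maff for Egr1 (0.34) and for Fosl2 (0.34), and Fosl2 for Fos (0.43).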

How the data were processed

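Tumor values were deposited as counts per gene that the authors had corrected in a way not given in the sources used here, and SB1 values as raw counts per gene in a separate table. STAR and mm10 are named in the submitters' processing notes, with no version. The counting tool, annotation and strand setting are not given in the sources used here, so reads of overlapping or antisense genes cannot be told apart. The 3 further columns of the SB1 table match no sample and were not used; the SY1 cells were not analysed here.

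filterByExpr, run by group with a minimum count of 10, kept 18318 of 43346 genes. Counts were fitted with 1 term per group over all 12 tumors in edgeR 4.0.16 (R 4.3.3, limma 3.58.1) with TMM scaling. Each of 5 contrasts got a quasi-likelihood F-test with Benjamini-Hochberg adjustment over all tested genes and a threshold of 0.05. The script was tested on simulated data. Alternatives were DESeq2 1.42.0, its size factors in edgeR, library size alone, no filter, a fit to the 2 groups compared, and leaving out each tumor. Log2 CPM used a prior count of 1. Precision comes from the spread between tumors; depth intervals would cover counting error only.

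The members and lists were chosen with earlier results of these data known. The text names the 10 members, for each list and comparison the 3 called genes with the smallest p, and for each member the 2 genes nearest in pattern, plus markers at 0. Where another gene is named, the text says that its values were known when it was picked.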

Additional observations from a re-analysis of the deposited data

Results flagged for a closer look

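The YAP-SY effect on Fosl2 differed between the histologies by an interaction term in edgeR's quasi-likelihood fit. Fosl2 was the 1 of 10 members called in this term, beside 10.2% of all tested genes called lower. The log2 fold change in CCA tumors minus that in mixed tumors was -1.337 (SE 0.27, adjusted p = 0.00972), with -1.53 in CCA and -0.19 in mixed tumors. All 3 YAP-SY CCA tumors lay below all 3 YAP-S CCA tumors, and the mixed groups overlapped.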

How the results depend on the processing

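In CCA tumors 5 members were called, 3 to 7 when each tumor was left out (3 without tumor 3 of YAP-S CCA and likewise without tumor 1 of YAP-SY CCA, 7 without tumor 4 of YAP-S CCA and without tumor 9 of YAP-SY mixed) and 10 with library size alone. Fos, Fosl2 and Maff kept their calls in every alternative run. No count filter, DESeq2 and a fit to the 2 groups compared each called 7. For CCA against mixed tumors within YAP-S the member count went from 0 to 1 with library size alone, 2 with DESeq2 and 4 with the 2 groups alone. Within YAP-SY it went from 0 to 1 with library size alone and 1 with DESeq2. For the difference between histologies it went from 1 to 4 with library size alone and 2 with DESeq2, and it was 1 to 2 when each tumor was left out. Under library size alone the all-gene median stood at -0.56, -0.51, 0.20 and -0.30 in the CCA, histology difference, YAP-S and YAP-SY comparisons; for the other changes the cause was not tested. The fit to 2 groups left Fosl1 untested in the mixed and the YAP-SY comparisons.

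With library size alone Fosb (-0.016) and Jun (-0.018) turned below 0 in mixed tumors, and Fos (-0.16) and Fosl1 (-0.12) between the histologies of YAP-SY. When each tumor was left out, these uncalled values crossed 0 in mixed tumors: Fosb (-0.47 to 0.37), Fosl2 (-0.34 to 0.010), Jun (-0.16 to 0.14), Junb (-1.57 to 0.17), Jund (-0.55 to 0.14), Atf3 (-0.30 to 0.014) and Maff (-0.48 to 0.21). Between the histologies of YAP-SY so did Fos (-0.12 to 0.45), Fosb (-0.37 to 0.39), Fosl1 (-0.47 to 2.45), Jun (-0.36 to 0.10), Junb (-1.12 to 1.03), Jund (-0.48 to 0.21), Egr1 (-0.046 to 0.72) and Maff (-0.59 to 0.034). In the difference of the YAP-SY effect they were Fosl1 (-2.31 to 0.61) and Atf3 (-0.68 to 0.12).

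Over all genes, the CCA comparison had 7171 calls, 8824 with library size alone and 5121 to 7609 when each tumor was left out. The mixed comparison had 0 calls and 12 with DESeq2. CCA against mixed tumors of YAP-S had 0, and 117 with DESeq2 size factors, 711 with library size alone, 570 without a filter, 1435 with DESeq2, 2393 with the 2 groups alone and 0 to 670 when each tumor was left out. For YAP-SY the count was 532, and 2006 with library size alone, 859 without a filter, 1720 with DESeq2, 0 with the 2 groups alone (0 too without YAP-SY CCA tumor 6) and 0 to 595 over the left-out tumors. The difference between histologies had 2788, 4330 with library size alone and 1058 (without YAP-S mixed tumor 2) to 3077 over the left-out tumors. List counts under other settings were added after seeing the data. No paired analysis was possible because the 2 groups of each comparison share at most 1 tumor number. Depth limits Fosl1 and Fosb, which had under 130 counts in every tumor.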
